A study of Mus musculus with 24 samples.

Results

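The 10 genes described here encode plasma membrane carriers of amino acids, with the arginine transporter gene Slc7a2 at their head, and 23 of the 45101 probe sets on the arrays carry their symbols. The genes were chosen by symbol with the circadian signals of these arrays in view, so their variation over the day is given as a description with no test. The 10 genes are Slc7a1, Slc7a2, Slc7a5, Slc7a11, Slc3a2, Slc1a4, Slc1a5, Slc38a1, Slc38a2 and Slc6a9. Of their 23 probe sets, 18 had a mean signal above the cutoff of 183 used for the fits, and these 18 represent 9 of the 10 genes. The other 5 are 1 probe set of Slc7a1, 2 of Slc7a2 and both of Slc7a11.

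Amino acids cross the cell membrane through carrier families that differ in the substrates they take and in the ions that drive them. Slc7a1 and Slc7a2 encode cationic amino acid transporters, which carry arginine, lysine and ornithine, and arginine is the substrate of nitric oxide synthases and arginases. Slc7a5 (LAT1, large neutral amino acids such as leucine) and Slc7a11 (xCT, cystine in exchange for glutamate) are light chains that reach the cell surface bound to the heavy chain 4F2hc, which is the product of Slc3a2. Slc1a4 (ASCT1) and Slc1a5 (ASCT2) exchange small neutral amino acids, glutamine among them for ASCT2. Slc38a1 and Slc38a2 (SNAT1 and SNAT2) take up glutamine and alanine together with sodium, and Slc6a9 encodes the glycine transporter GlyT1. Cells short of amino acids raise many of these genes through the transcription factor ATF4. In the adrenal gland the cortex makes steroids and the medulla catecholamines, and corticosterone release follows the day.

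The tissue was the whole adrenal gland of adult (3 months old) male C57B/6J mice, which carried no engineered allele in the labels and received no drug. All mice had spent 2 weeks in 12 h of light and 12 h of darkness. They were then killed in constant darkness, in steps of 4 h, with the first mice taken 38 h and the last 82 h after the lights went off, and each of the 12 time points has 2 arrays. There was no untreated or light-exposed control group, since the comparison is between times. Projected circadian time (CT) is the hours after lights off minus 12, modulo 24, so that CT 0 to 12 is the projected day and CT 12 to 24 the projected night, and the 12 time points give 6 circadian times over 2 cycles. The labels do not say whether arrays of a time came from separate animals, so the p-values given measure the spread of these samples alone, and that spread may be technical. The whole gland holds several cell types, and fewer cells of a type cannot be told apart from less RNA per cell.

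Libraries that stand apart touch several results. In 6 pairs the deposited columns were near copies, with signals of at least 50 that agreed within 5%, including pairs labelled with different hours of the same circadian time, and each pair was averaged and counted as 1 sample. This left 18 profiles, 3 per circadian time. The arrays of CT10 and CT18 (6 profiles) form a second array batch by a spiked-in control signal, ThrX-3, above 300, and the other 4 circadian times (12 profiles) form the first batch. A level at CT10 or CT18 set against the other times is therefore also a comparison of batches, which cannot be told apart from time, whereas CT10 against CT18, and CT 2, 6, 14 and 22 among themselves, lie within a batch. The defining genes of the adrenal cortex and medulla were bright in all profiles, with summed signals of 61135 to 78376 and of 32057 to 41578. Skeletal muscle markers summed to 908 to 1228 in the first batch and 860 to 32850 in the second, and liver markers to 672 to 2334 and 1459 to 18269. At CT18 the liver sums were 6931, 1751 and 18269 and the muscle sums 32850, 1352 and 8424 in the average of 54 h replicate 1 and 78 h replicate 1, in 54 h replicate 2 and in 78 h replicate 2. The 78 h replicate 2 array also had a Gapdh signal ratio of 5′ to 3′ probe sets of only 0.0386.

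The RefSeq table of promoter windows (build GRCm38.p6, 250 bases before to 50 after a gene's start) matched 6 of the 10 genes, with 9 windows: Slc7a11, Slc6a9, Slc7a1, Slc1a4, Slc38a2 and Slc3a2. Slc7a2, Slc7a5, Slc1a5 and Slc38a1 were not matched. Motifs known from clock output and from amino acid shortage were searched on both strands. The E-box CACGTG, which CLOCK and BMAL1 bind, was in 0 of the 9 windows and in 7.15% of all 32851 windows. The D-box (TTATGTAA or TTACGTAA), bound by DBP, was likewise in 0 of the 9 and in 1.06% of all. The core of the element of the ROR and REV-ERB receptors (TAGGTCA or TGGGTCA) was in 1 window, that of Slc3a2, against 6.45% of all. The bases before this core, which are part of the full element, were not searched. The ATF4 response element (TGATGNAA) was in 2 windows, those of Slc1a4 and Slc7a11, against 3.97% of all. The matching stretches are printed on the strand of the gene, with the matches in capitals, because Slc3a2 is among the genes that varied over the day and Slc7a11 and Slc1a4 hold the element of the shortage response.
Slc3a2, chr19:8713898-8714017, minus strand: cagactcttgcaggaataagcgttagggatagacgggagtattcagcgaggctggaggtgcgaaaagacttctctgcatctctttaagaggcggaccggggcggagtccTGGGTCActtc
Slc7a11, chr3:50443633-50443699, minus strand: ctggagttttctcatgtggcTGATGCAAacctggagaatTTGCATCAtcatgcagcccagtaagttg
Slc1a4, chr11:20332710-20332737, minus strand: cctccagcgtgcctcctgcgTTGCATCA
The Slc7a11 stretch holds the element once on each strand, and the Slc1a4 match lies across the annotated start. A match is a run of letters and not a measured binding site.

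Slc7a2, a cationic amino acid transporter gene, was lowest at CT18 and highest at CT10. Its brightest probe set, 1436555_at, had signals of 1252, 1355 and 1436 in the 3 profiles of CT18 and of 2296, 2388 and 2512 in those of CT10. All 3 CT18 profiles lay below every profile of the other 5 times, of which the lowest was 1635, at CT6. Among the first-batch times the signals were 2170 to 2323 at CT2, 1635 to 2079 at CT6, 2152 to 2528 at CT14 and 1945 to 2476 at CT22. The profiles of CT6 all lay below those of CT2 and CT14, and overlapped those of CT22. On the log2(signal + 51) scale, where the added 51 makes fold changes of dim probe sets too small, the means were 10.45 ± 0.10 at CT18 and 11.26 ± 0.06 at CT10 (SD, n = 3 each). CT10 was thus higher than CT18 by 0.81 ± 0.07 (SE), which is 1.75-fold, within the second batch. CT14 was higher than CT6 by 0.35 ± 0.12 within the first. From low to high the order was CT18, 6, 22, 2, 14 and 10, and only CT18 and CT6 did not overlap among the 5 pairs of neighbours.

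**Figure D1:**
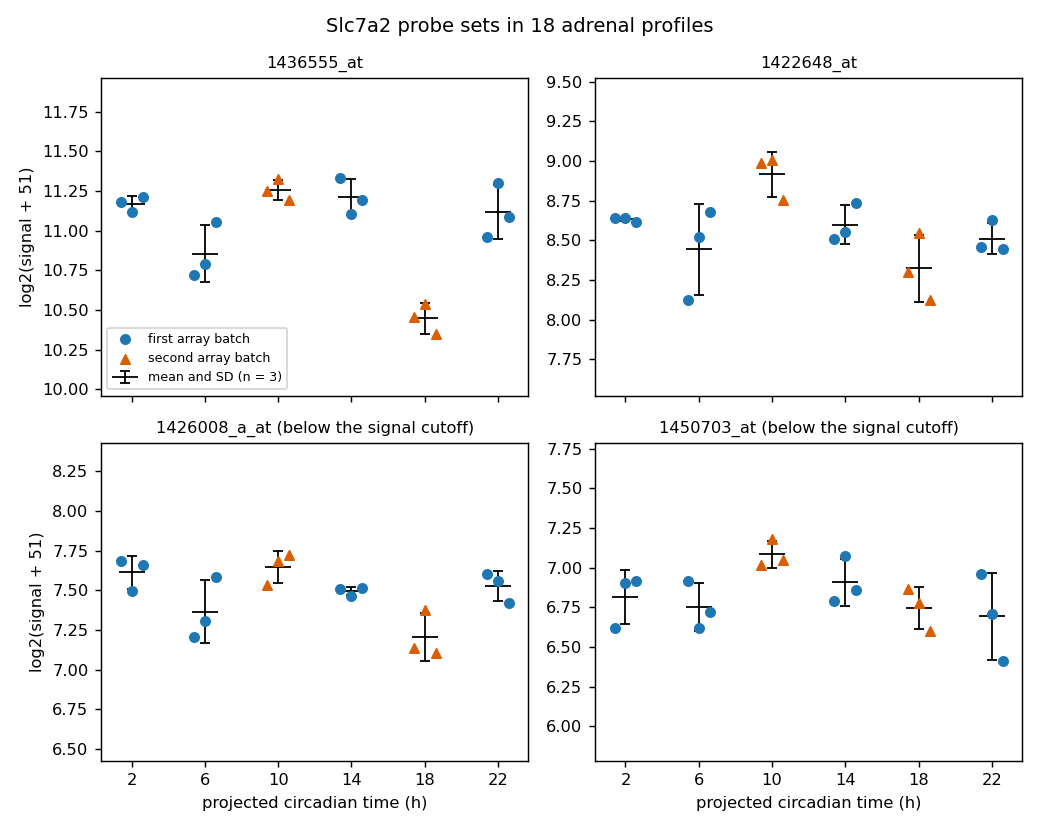
Log2(signal + 51) of the 4 Slc7a2 probe sets against projected circadian time in hours, 1 point per profile, with mean and SD bars (n = 3) and the array batch as colour and shape. The brightest probe set, top left, has its 3 CT18 profiles below all others.

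Within CT18 the signals of Slc7a2 were in the reverse order of the liver markers: 1436 in 54 h replicate 2 (liver sum 1751), 1355 in the average of 54 h replicate 1 and 78 h replicate 1 (6931) and 1252 in 78 h replicate 2 (18269). Over the 18 profiles r between Slc7a2 and liver markers was -0.61 and rho -0.18. That r was 0.15 within the first batch, -0.78 within the second and 0.05 without the 2 profiles farthest from the median liver sum. Endothelial markers had r = 0.53 and rho = 0.37 with Slc7a2. Their r was 0.49 and 0.48 within the batches, and 0.20 without the 2 profiles farthest from the median endothelial sum. Without 78 h replicate 2 the CT18 level of Slc7a2 stayed lower than that of CT10 by 0.76 on the log2 scale, a 1.69-fold difference. With only the profiles whose Acta1 signal, a muscle actin gene, was at most 1000, 1 profile at each time, CT10 was 1.72-fold higher. The part of the marker genes in the remaining difference was not tested.

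The other 3 Slc7a2 probe sets were dimmer, and each was also highest at CT10. Probe set 1422648_at had signals of 381, 457 and 464 at CT10, above all 15 other profiles, and of 228, 264 and 323 at CT18, which is 1.51-fold lower. The pair 1426008_a_at and 1450703_at lay below the cutoff, with mean signals of 128 and 63.9. The first of them was lowest at CT18, where it was 1.36-fold lower than at CT10, and the second was lowest at CT22. The fitted 24 h amplitude of 1436555_at was 0.16 ± 0.09 (SE) with a peak at CT 7.25. It was 0.10 without 78 h replicate 2 and 0.03 without the profiles of Acta1 signal over 1000, and with batch as a block it was 0.17 ± 0.09 with a peak at CT 9.45. Within the first batch alone the amplitude was 0.16 ± 0.07, but the fitted peak was at CT 18.5, in the projected night. The first batch has no profiles near that time, and its highest mean was at CT14. For 1422648_at the amplitude was 0.16 ± 0.07 over all profiles and 0.04 within the first batch.

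Slc7a1, the widely expressed cationic transporter that carries the same substrates, was highest at CT14 by both bright probe sets. Probe set 1454991_at read 2759, 3192 and 3523 at CT14 and 2449, 2467 and 2502 at CT6, and these groups did not overlap. CT14 was higher than CT6 by 0.34 ± 0.10 on the log2 scale, 1.27-fold, within the first batch. Probe set 1454992_at gave the same high time, with 2889, 3252 and 3332 at CT14 against 2314, 2364 and 2470 at CT6, a 1.32-fold difference. At CT18 the probe sets disagreed. There 1454992_at read 1598, 1696 and 2892, its lowest time, while 1454991_at read 2278, 2968 and 3313. The profile of 54 h replicate 2 was the high one for both. Fitted amplitudes were 0.13 ± 0.05 with a peak at CT 15.0 for 1454991_at and 0.18 ± 0.08 with a peak at CT 10.9 for 1454992_at. With batch as a block they were 0.15 ± 0.05 (peak at CT 14.8) and 0.25 ± 0.08 (peak at CT 11.9). Within the first batch alone the peaks lay closer, at CT 15.5 and CT 14.5, with amplitudes of 0.16 ± 0.04 and 0.22 ± 0.04. The remaining Slc7a1 probe set, 1421533_at, lay below the cutoff with a mean signal of 70.7.

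Slc7a5, the leucine-carrying light chain LAT1, had the widest range over the day of the 10 genes. Its single probe set read 2341, 2524 and 2652 at CT10, above each of the other 15 profiles, whose highest was 1655 at CT6. The lowest time was CT22, with 628, 836 and 870. The values were 1136, 1179 and 1293 at CT2, 1128, 1220 and 1655 at CT6, and 1266, 1318 and 1483 at CT14. Within the first batch, CT14 was higher than CT22 by 0.77 ± 0.15 on the log2 scale, 1.71-fold, and every profile of CT 2, 6 and 14 lay above every one of CT22. CT18 was spread from 685 to 1577, with the lowest value in 78 h replicate 2. CT10 was higher than CT18 by 1.16 ± 0.34, or by 0.84 without that array, and the groups did not overlap in either case. Across batches, CT10 was 3.11-fold higher than CT22. The order from low to high was CT22, 18, 2, 6, 14 and 10, in which only CT14 and CT10 did not overlap as neighbours. The fitted amplitude was 0.62 ± 0.11 with a peak at CT 9.83, a peak-to-trough ratio of 2.35. With batch as a block it was 0.57 ± 0.09 with a peak at CT 8.99, and 0.45 within the first batch alone.

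Slc3a2, the heavy chain that LAT1 and xCT both need, varied within a narrower range than Slc7a5. Its probe set read 3573, 3809 and 3984 at CT14 and 2691, 2915 and 3180 at CT22. These groups did not overlap, and CT14 was higher by 0.37 ± 0.08 on the log2 scale, 1.29-fold. The CT2 profiles, at 3008, 3044 and 3124, also lay below all profiles of CT6, 10, 14 and 18. At CT18 the 3 profiles lay close together, from 3590 to 3675. Slc3a2 had r = 0.56 with macrophage markers over the 18 profiles, and 0.52 and 0.34 within the first and second batch. After the mean of each circadian time was taken off r was 0.79. The part of these markers in the level of Slc3a2 was not tested. The amplitude was 0.16 ± 0.04 with a peak at CT 12.8, and with batch as a block both were the same to these digits. Slc7a5 and Slc3a2 shared their lowest time, CT22. Their highest times, CT10 and CT14, lie in different batches, the CT10 and CT14 profiles of Slc3a2 overlapped, and within the first batch both genes were highest at CT14. Whether their phases differ was not tested.

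**Figure D2:**
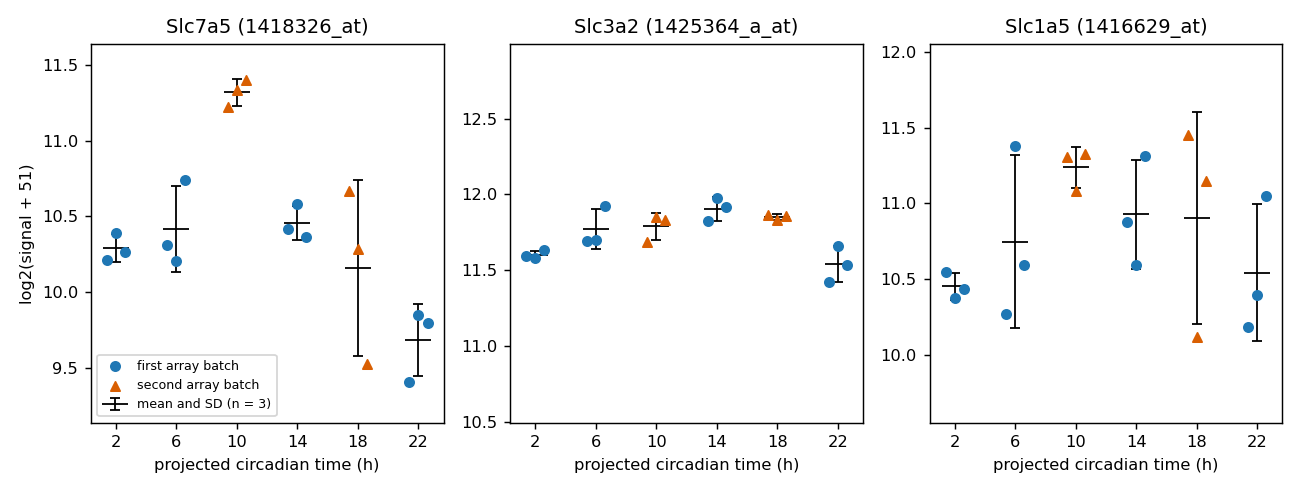
Log2(signal + 51) of Slc7a5, Slc3a2 and the bright Slc1a5 probe set against projected circadian time in hours, 1 point per profile, with mean and SD bars (n = 3) and the array batch as colour and shape; the axes of the panels span the same number of log2 units. Slc7a5 at CT10 lies above all other times, and Slc1a5 is spread widely within CT6, CT14, CT18 and CT22.

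Slc7a11, the cystine light chain that also pairs with 4F2hc, was near the bottom of the signal range. Probe set 1420413_at lay between 0 and 62 and 1443536_at between 7 and 92, and neither passed the cutoff. The probe sets had their highest means at CT22 and at CT18, and no level over the day is drawn from signals this dim. Their promoter stretch, shown above, is that with the ATF4 element on both strands.

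Slc1a5, the glutamine exchanger ASCT2, differed more between profiles of one circadian time than between most times. Its bright probe set, 1416629_at, read 1275, 1336 and 1447 at CT2 and 2121, 2481 and 2513 at CT10, the lowest and highest times. At CT18 the same probe set read 1058, 2214 and 2754, and at CT6 it read 1183, 1494 and 2615. The amplitude was 0.34 ± 0.13 with a peak at CT 12.2, and 0.27 ± 0.14 with batch as a block. None of the 5 pairs of neighbours in its order was apart. The dimmer probe set 1440379_at, with a mean signal of 300.4, had its fitted peak at CT 19.0 and its highest CT18 value, 459, in 54 h replicate 2, the profile in which 1416629_at was lowest.

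The levels of Slc1a5 and of fat cell markers (Adipoq, Cidec, Lep, Retn and Ucp1) were high in the same profiles. The relation was noticed in these profiles, so it is given as a description with no test. The summed fat markers ranged from 11097 to 29585. The 5 profiles with the highest sums, at 26264 and above, had Slc1a5 signals between 2070 and 2754, whereas the 5 with the lowest sums, at 16080 and below, had signals of at most 1336. Over the 18 profiles Pearson's r between the log2 values was 0.86 and Spearman's rho 0.86. Without the 2 profiles farthest from the median fat sum r was 0.85. It was 0.88 within the first batch (n = 12), 0.84 within the second (n = 6), and 0.88 after the mean of each circadian time was taken off. Markers of other cells also moved with Slc1a5: r was 0.61 with skeletal muscle markers (0.55 and 0.70 within the batches) and -0.60 with adrenal cortex markers (-0.66 and -0.47 within the batches).

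The same description was made for the 9 genes with a tested probe set, by their brightest one, and 9 marker lists, 81 relations in all. Slc6a9 had r = 0.80 and rho = 0.77 with macrophage markers, and r was 0.70 and 0.20 within the batches. Slc38a1 had r = -0.81 with endothelial markers, but -0.73 within the first batch and 0.83 within the second. Slc7a5 had r = 0.63 and rho = 0.56 with red blood cell markers, and r was 0.56 and 0.50 within the batches. The part of these other cells in the levels of the transporters was not tested.

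**Figure D3:**
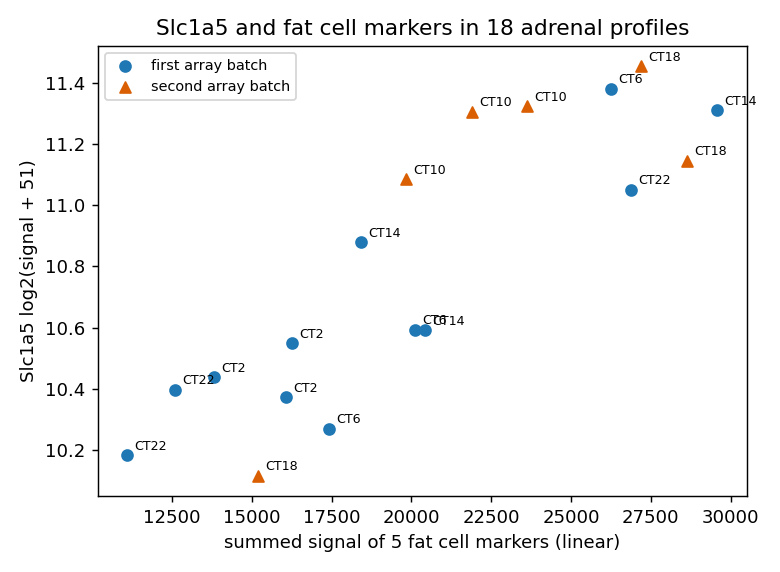
Log2(signal + 51) of Slc1a5 (1416629_at) against the summed linear signal of 5 fat cell markers, 1 point per profile (n = 18), labelled with the circadian time and with the array batch as colour and shape. Profiles of one circadian time lie far apart along both axes, and Pearson's r is 0.86.

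Slc1a4, the related neutral exchanger ASCT1, had small differences between times. Its 3 probe sets had mean signals of 233 to 350 and fitted amplitudes of 0.07 to 0.08, with SEs of 0.05 to 0.07, and each moved by over 1.5 times when 1 profile was left out, that of 1423550_at to 0.03 without 78 h replicate 2. Their highest times were CT2 for 1423549_at and 1423550_at and CT22 for 1456003_a_at. In none of the 3 did any neighbouring times lie apart.

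Slc38a2, the sodium-coupled transporter SNAT2 that cells raise when amino acids are scarce, was lowest at CT18 by its brightest probe set, as Slc7a2 was. Its means at CT10 and CT14 were level, with a difference of 0.0004 ± 0.08 (SE) on the log2 scale that also crosses the batches. Probe set 1426722_at read 2975, 3746 and 3756 at CT18 and 3869, 4185 and 4373 at CT10. These groups did not overlap, and CT10 was 1.19-fold higher. The CT6 profiles ranged from 3458 to 4732 and overlapped both. The amplitude was 0.11 ± 0.05 with a peak at CT 8.30. The dimmer probe sets 1429593_at and 1429594_at did not share the low time. They were lowest at CT6 and CT10, and highest at CT14 and CT22.

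Slc38a1, the related carrier SNAT1, read higher on the second batch than on the first by its bright probe set. Probe set 1415903_at gave 667 to 709 at CT10 and 621 to 711 at CT18, against 505 to 606 over the 4 first-batch times. The amplitude was 0.07 ± 0.05, and 0.05 ± 0.03 with batch as a block. The second probe set, 1454764_s_at, did not show this split: it was lowest at CT18, with 232, 398 and 451.

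Slc6a9, the glycine carrier GlyT1, was highest at CT10 and lowest at CT14 by probe set 1417636_at. It read 599, 673 and 750 at CT10 and 508, 522 and 522 at CT14. The difference was 0.35 ± 0.09 on the log2 scale, or 1.27-fold, and it crosses the batches. Within the second batch CT10 and CT18, at 580 to 651, overlapped. Probe set 1431812_a_at instead was highest at CT6, with 583 to 641, and lowest at CT18, with 399 to 545.

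**Figure D4:**
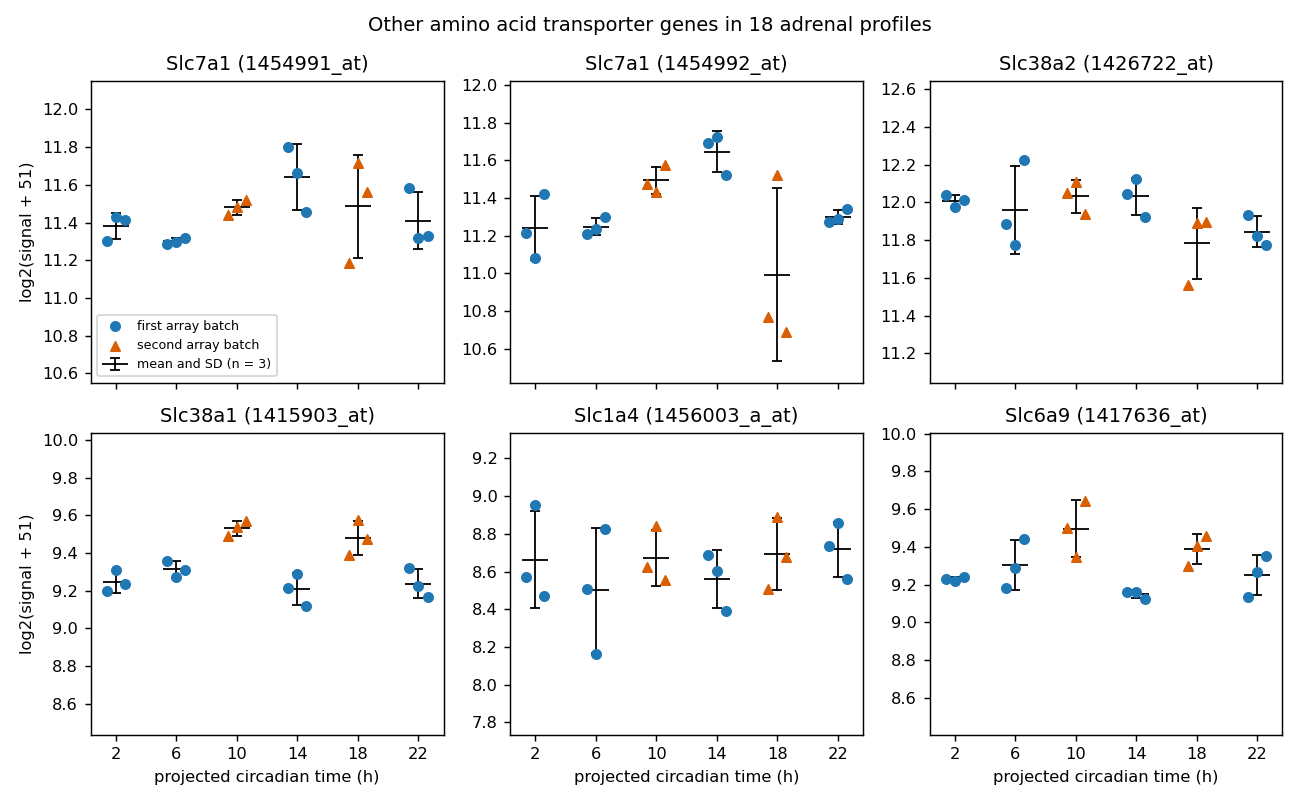
Log2(signal + 51) of the 2 bright Slc7a1 probe sets and of the brightest probe set of Slc38a2, Slc38a1, Slc1a4 and Slc6a9 against projected circadian time in hours, 1 point per profile, with mean and SD bars (n = 3) and the array batch as colour and shape. Both Slc7a1 probe sets have their highest mean at CT14, and they part at CT18, where 1454992_at has its lowest mean.

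Set beside all probe sets tested, the 18 transporter probe sets had amplitudes close to the median of the arrays, with Slc7a5 and Slc1a5 as the highest. A 24 h cosine fitted with limma passed an adjusted p of 0.05 in 2 of the 18, those of Slc7a5 and Slc3a2, and in 10.2% of all 27022 tested. With batch as a block the same 2 passed, against 16.0% of all. Within the first batch 3 passed, 1454992_at of Slc7a1 besides those of Slc7a5 and Slc3a2, against 10.1% of all. Nothing is read from these counts, because the genes were chosen with such results known. Their median amplitude was 0.11 on the log2 scale and that of all tested probe sets 0.12. The median span between the highest and the lowest time was 0.34 in the transporters and 0.40 in all. Profiles of CT10 and CT18 did not overlap in 4 of the 18 (both tested Slc7a2 probe sets, 1426722_at of Slc38a2, and Slc7a5), against 29.3% of all. Profiles of the highest and lowest first-batch times did not overlap in 10 of the 18, against 51.3% of all. CT10 was the highest time in 7 of the 18 (24% of all), CT18 was the lowest in 7 (26.9% of all), and CT18 was the highest in 0 (16.2% of all).

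**Figure D5:**
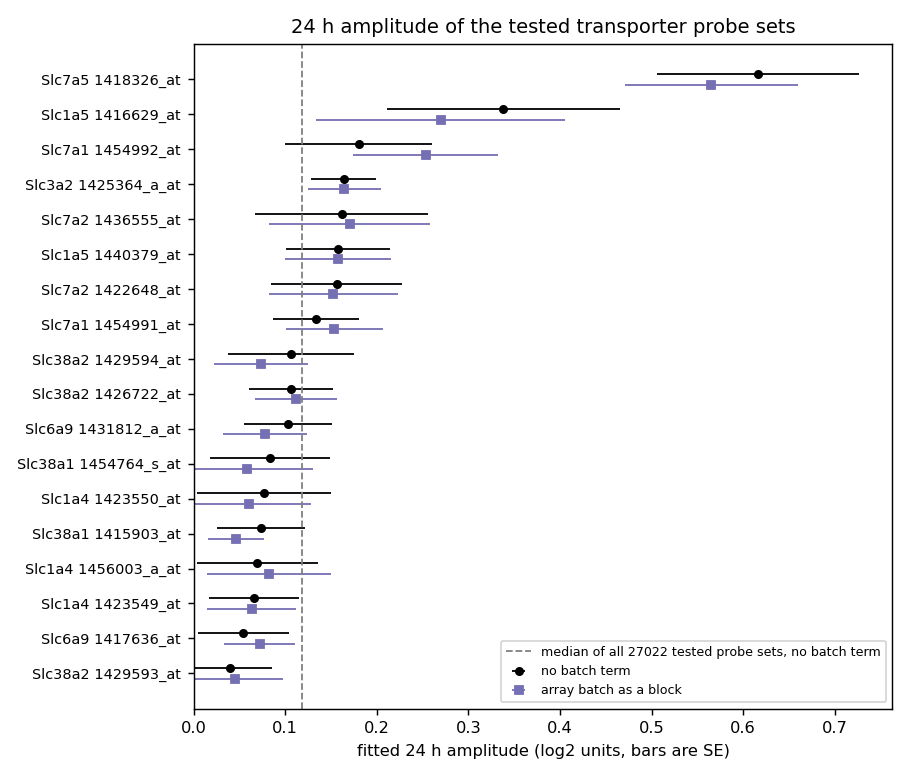
Fitted 24 h amplitude in log2 units, with SE bars, of the 18 tested transporter probe sets, without a batch term and with batch as a block; the dashed line is the median of all 27022 tested probe sets without a batch term. Slc7a5 lies farthest to the right at 0.62, and 10 of the 18 lie below the dashed line.

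The repeat of each circadian time in a second cycle gave a comparison that the choice of the genes did not use. It rests on the 13 profiles that belong to 1 cycle, 7 in the first (38 to 58 h after lights off) and 6 in the second. For the level, 0 of the 18 transporter probe sets passed limma's test at an adjusted p of 0.05, against 0% of all, and 1 had an unadjusted p under 0.05, against 8.06% of all. That 1 was 1416629_at of Slc1a5, which was higher in the second cycle by 0.47 ± 0.14 on the log2 scale (unadjusted p = 0.0067, adjusted p = 0.61, limma) and at 5 of 6 circadian times. The fat marker sums of its second-cycle profiles were the higher ones at CT6, CT10, CT14, CT18 and CT22, for example 26882 against 11097 at CT22. At CT2, where Slc1a5 was lower in the second cycle, the second-cycle sum was the lower one. The relation with fat markers was noticed in these same profiles, and their part in the cycle difference was not tested. For Slc7a2 (1436555_at) the difference was 0.04 ± 0.06 (adjusted p = 0.87, limma), with the second cycle higher at 4 of 6 times. For Slc7a5 the second cycle differed by 0.01 ± 0.13 (adjusted p = 0.99, limma). As a description, Slc7a2 read 1436 at CT18 in the first cycle and 1252 in the second, each from 1 profile, and the second is the 78 h replicate 2 array with the low Gapdh ratio, a liver sum of 18269 and a muscle sum of 8424. At CT10 it read 2450 and 2296. The interaction of cycle and 24 h rhythm passed in 0 of the 18 at an adjusted p of 0.05 (limma), against 0% of all, and in 0 at an unadjusted p under 0.05, against 1.99% of all.

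Genes around the transporters were followed through 5 lists, for each gene by its brightest tested probe set. The p-values are those of limma's 24 h test, adjusted over all tested probe sets. All 5 lists were chosen with earlier results of these data known, so their counts and p-values are given as a description. Over all genes 1575 of 13880 passed. Of 28 other amino acid transporters tested, 2 passed: Slc7a10, a carrier of small neutral amino acids that fat cells also express, with an amplitude of 0.70 ± 0.11 and a peak at CT 15.3 (adjusted p = 0.0017), and Slc6a6, the taurine transporter, with 0.29 ± 0.06 and a peak at CT 6.53 (adjusted p = 0.012). Fat markers summed to 18412 to 29585 at CT14 and to 13816 to 16271 at CT2, and their part in the Slc7a10 result was not tested. Of 17 genes of arginine and polyamine metabolism 1 passed, Srm, the spermidine synthase gene, with 0.44 ± 0.05 and a peak at CT 15.9 (adjusted p = 0.00013). Of 26 genes of the integrated stress response 6 passed, 3 with a peak in the projected day and 3 in the night. Among them were Herpud1, of endoplasmic reticulum protein degradation, with 0.42 ± 0.03 and a peak at CT 12.9 (adjusted p = 5.8e-06), and Psat1, of serine synthesis, with 0.28 ± 0.03 and a peak at CT 15.7 (adjusted p = 0.00034).

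Cytosolic tRNA synthetases charge tRNAs with the amino acids that these carriers bring in. Of 18 of their genes tested 3 passed, again as a description, against 1575 of 13880 over all genes. All 3 had night peaks, and the share of night peaks over all genes is not given here, so nothing is read from it. Farsb had an amplitude of 0.20 ± 0.03 with a peak at CT 18.6 (adjusted p = 0.0010, limma) and Tars 0.20 ± 0.04 with a peak at CT 18.8 (adjusted p = 0.016, limma). Of 15 genes of glutathione metabolism and the NRF2 response (glutathione is made from cysteine, which xCT supplies as cystine), 6 passed, 3 with day and 3 with night peaks. The pair with the lowest p were Me1, malic enzyme, with 0.12 ± 0.02 and a peak at CT 1.43 (adjusted p = 0.012, limma), and Gsta3, a glutathione transferase, with 0.45 ± 0.10 and a peak at CT 18.1 (adjusted p = 0.018, limma). Median amplitudes were 0.11, 0.13, 0.13, 0.08 and 0.18 in the order of the lists as given, and 0.11 over all genes.

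Genes whose brightest probe set was most like 1436555_at of Slc7a2 over the 18 profiles were named by Pearson's r, as a description. They were Tnrc6a (r = 0.90), Ralb (0.89), Zfp410 (0.88), Dpysl2 (0.87) and Cables2 (0.87). All profiles share array batch and tissue makeup, and within the first batch alone (n = 12) the same r were 0.60, 0.49, 0.65, 0.75 and 0.40. Each of the 5 was lowest at CT18, for example Tnrc6a with a mean of 10.26 there and of 10.75 to 10.86 at the other times on the log2(signal + 51) scale. Choice by likeness to 1436555_at, itself lowest at CT18, favours such genes, so nothing is read from this. CT18 was the lowest time in 26.9% of all tested probe sets. Among the other transporters r with Slc7a2 was 0.55 for Slc38a2 and 0.36 for Slc7a5 over all profiles, and 0.29 and 0.08 within the first batch, where Slc1a4 (0.41) and Slc7a1 (0.39) were higher.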

How the data were processed

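Total RNA of whole mouse adrenals was labelled with biotin, per the labels' protocols, and read on 24 Affymetrix arrays. The authors deposited a linear intensity for each probe set, and its summary and scaling steps are not given in the sources used here. Log2 medians of the arrays lay between 8.14 and 8.32, so no further normalization was applied. Here intensities were turned into log2(signal + 51), 51 being the 10th percentile of all values, and the fits kept probe sets whose mean reached the 40th percentile, a signal of 183. Gene symbols came from the platform annotation: 34958 probe sets had 1 symbol, 932 several, 9211 none, and 64 were controls. Columns were called near copies where signals of at least 50 agreed within 5%. Cosine and sine terms of 24 h were fitted to 18 profiles with limma 3.58.1 in R 4.3.3 (intensity trend, Benjamini-Hochberg over 27022 probe sets, threshold 0.05), after a check on simulated data. Differences between times are given with their SE, and profiles as not overlapping where all of one group exceed all of the other. The genes and lists were chosen with earlier results of these data known. Named were all 10 genes with every probe set, up to 2 genes of lowest p per list, and the 5 genes most correlated with Slc7a2. The marker relations were added after the data were seen and carry no test. Alternatives covered the offset, the filter, batch, near copies, single profiles and replicate numbers. The number of arrays limits the precision.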

Additional observations from a re-analysis of the deposited data

How the results depend on the processing

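Leaving out 1 profile moved the fitted amplitude by over 1.5 times in 9 of the 18 transporter probe sets, among them 1436555_at of Slc7a2 (from 0.16 to 0.10 without 78 h replicate 2), so amplitudes of this size are not well determined. The count of transporter probe sets past the threshold (2) was 4 with all 24 columns as independent, 5 with batch as a block and without profiles of high Acta1, and 0 without replicate 1 or without replicate 2. The count over all probe sets (2749) was 1777 with the brightest probe set per gene, 4319 with batch as a block, 7411 with 24 columns, 1486 without high-Acta1 profiles, 31 without replicate 1, 175 without replicate 2, 4479 with batch as a block and without 78 h replicate 2, and 1726 (without 46 h replicate 1) to 3358 with single profiles left out. For arginine and polyamine genes (1) it was 2 with no filter, 3 within the first batch, 4 with 24 columns and 0 without replicate 1. For synthetases (3) it was 5 within the first batch, with 24 columns, and with batch as a block and without high Acta1, 6 with batch as a block and without 78 h replicate 2, and 2 to 3 with single profiles left out. For glutathione genes (6) it was 10 with 24 columns, 3 without high-Acta1 profiles, and 3 (without 46 h replicate 1 or without 62 h replicate 1) to 6 with single profiles left out. For the other transporters (2) it was 4 with batch as a block, 5 within the first batch and in both added block settings, and 6 with 24 columns. Without replicate 1 or replicate 2 these 3 lists had 0 calls, and stress response genes (6) had 0 and 2. The cause of these changes was not tested. Settings that combine the block with profiles left out were chosen after the data were seen. Replicate numbers did not pair the arrays: of 66 pairs of times 18 had deviations correlated over 0.1 between same-numbered arrays, with a median of 0.01, and with the replicate block 2 transporter probe sets passed.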
